A study of Mus musculus with 27 samples.

Results

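The genes described here are 9 genes that control where a CD8 T cell goes and what it holds on to: S1pr1 and Klf2, which govern exit from the lymph node, the integrin chains Itgal, Itga4, Itgae, Itgb1 and Itgb7, and the surface molecules Cd44 and Ly6c2. They were picked out by gene symbol, with earlier results of these data known, and are 9 of the 35275 genes in the tables. RNA was sequenced from P14 CD8 T cells of WT, lin28Tg and let-7Tg mice at 3 stages, with 3 libraries in each of the 9 groups and 27 libraries in all. The lin28Tg transgene expresses Lin28b, which blocks the maturation of let-7 microRNAs, and the let-7Tg cells carry a doxycycline-inducible let-7g gene placed at Col1a1. The comparisons ask how loss or forced expression of let-7 bears on the transcriptome of a CD8 T cell before and after activation.

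All mice carried the P14 T cell receptor transgene on a Rag2-/- background, and all of them, WT included, drank doxycycline. They were young adults of both sexes, and the 3 samples of a group are biological replicates by the study's methods. Naive CD8 T cells were taken from lymph nodes, the tissue given in the labels for all samples, and not cultured. The 12 h cells were stimulated with anti-CD3 at 2 µg/ml and anti-CD28 at 5 µg/ml, and the day 5 CTLs were raised on irradiated splenocytes with anti-CD3 at 2 µg/ml and given IL-2 at 100 U/ml. Both cultures held doxycycline at 2 µg/ml. Stage is therefore tied to the way the cells were kept, and the part of time and that of culture cannot be told apart. In lin28Tg libraries Lin28b stood at 56.4 to 67.9 FPKM in naive cells, 9.94 to 12.6 FPKM at 12 h and 14.0 to 22.4 FPKM at day 5. It was at no more than 0.0590 FPKM in any WT or let-7Tg library. Col1a1 was higher in every let-7Tg library than in any WT or lin28Tg library of its stage. Levels are given as FPKM, which divides reads by gene length and library total. The lengths behind it differed unevenly from the joined exons of GENCODE M21 (3670 against 13978 bases for Itga4, 1847 in both for Klf2). Levels of different genes can therefore be compared only roughly. Library totals ran from 13862692 to 23590943 reads.

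As background, S1pr1 is the receptor that senses sphingosine 1-phosphate in blood and lymph and draws T cells out of the lymph node, and Klf2 is the transcription factor that drives S1pr1 in quiescent cells. Integrins work as pairs of one alpha and one beta chain: Itgal pairs with Itgb2 to form LFA-1, which binds ICAM proteins, Itga4 pairs with Itgb1 to bind VCAM1 and fibronectin or with Itgb7 to bind MAdCAM1 of gut vessels, and Itgae pairs with Itgb7 to bind E-cadherin on epithelium. Cd44 is the hyaluronan receptor used as a sign of antigen experience, and Ly6c2 encodes a surface protein of memory and interferon-exposed CD8 T cells.

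The let-7 family acts on messages through its seed, so the letters that pair with the seed were searched for in 3′ UTRs, using for each gene its coding transcript of greatest length (GRCm38, GENCODE M21). The letters CTACCTC, read on the strand of the message, were present once in Itga4 and once in Itgal and were not found in the other 7 genes; 10.4% of the 12666 tested genes with a 3′ UTR held them. The mature let-7g from RefSeq, whose seed (bases 2 to 8) is in capitals, and the windows around both matches, with the 7 matching letters in capitals, are shown because they are where let-7 could pair with these messages.
let-7g: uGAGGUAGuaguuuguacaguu
Itga4: tacaaaagaacgtagCTACCTCctgg
Itgal: ttccctcagctgtccCTACCTCctgg
The Itga4 match lies on the plus strand at chr2:79328657-79328663, in an exon of the 3′ UTR, and the Itgal match on the plus strand at chr7:127333940-127333946, likewise in the 3′ UTR. A match is a description of the letters and not evidence of a site in use. Of the pair, Itgal was highest in lin28Tg and lowest in let-7Tg at day 5 (below), and Itga4 was not. At 12 h the Itga4 means did have that order, at 12.7 (lin28Tg), 7.28 (WT) and 7.13 FPKM (let-7Tg). The WT and let-7Tg libraries overlapped there. Itgae in naive cells and Cd44 at 12 h, which lack the letters, had the order too, without overlap (below). Whether let-7 acts on any of these messages was not tested.

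In naive cells, lin28Tg had less S1pr1 than the other genotypes (0.537 times the WT mean) and more Cd44, Itgb1, Itgae and Itgal, whereas let-7Tg and WT did not separate on any of the 9 genes by the test. The test was limma on log2(FPKM + 0.5), with p-values adjusted over all genes tested, and a gene is said to have risen or fallen where its adjusted p was under 0.05. Of the 9 genes, 5 passed between lin28Tg and WT, against 33.9% of the 13251 genes tested. The groups did not overlap for 7 of the 9 genes, in FPKM as after scaling of the libraries, against 49.9% of all genes. The median log2 difference of the 9 was 0.25, and that of all genes tested was -0.03. Between lin28Tg and let-7Tg 6 passed, against 44.2% of all genes, and 7 did not overlap, against 53.9%. Between let-7Tg and WT none passed, against 0.74% of all genes, although 2 had an unadjusted p under 0.05. The comparisons of lin28Tg and of let-7Tg with WT share the WT libraries.

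S1pr1 (chr3:115710433-115715072, minus strand) measured 146, 145 and 142 FPKM in WT, 76.8, 73.5 and 81.5 FPKM in lin28Tg, and 144, 172 and 143 FPKM in let-7Tg naive cells. Every lin28Tg library lay below every library of the other genotypes. The log2 difference was -0.94 ± 0.08 (SE) from WT, with an adjusted p of 7.36e-05, and -0.99 ± 0.08 from let-7Tg, with an adjusted p of 3.87e-05. Klf2 (chr8:72319033-72321656, plus strand) measured 351, 379 and 486 FPKM in WT, 284, 279.99 and 256 FPKM in lin28Tg, and 283, 558 and 275 FPKM in let-7Tg. Its lin28Tg libraries lay below the WT libraries, but the log2 difference of -0.60 ± 0.25 did not pass (adjusted p = 0.0859). Without let-7Tg replicate 2, whose Klf2 stood far above that of its group, the adjusted p was 0.00649.

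Among the integrin alpha chains, Itgae (chr11:73090583-73147446, plus strand) was in the order lin28Tg, WT, let-7Tg. It measured 69.7, 65.9 and 76.6 FPKM in lin28Tg, 44.8, 43.3 and 37.8 FPKM in WT, and 19.3, 35.3 and 18.0 FPKM in let-7Tg, and no library of one genotype reached into another. Itgae rose by 0.70 ± 0.21 (log2 difference ± SE) in lin28Tg over WT (adjusted p = 0.0314) and by 1.58 ± 0.21 over let-7Tg (adjusted p = 0.000466). The first of these calls was lost when any 1 of the 6 WT and lin28Tg libraries was left out, with adjusted p-values up to 0.101, and the difference of let-7Tg from WT, -0.88 ± 0.21 (adjusted p = 0.1), passed without let-7Tg replicate 2 (adjusted p = 0.00573).

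Itgal (chr7:127296260-127335138, plus strand) measured 199, 196 and 194 FPKM in lin28Tg, 164, 153 and 160.2 FPKM in WT, and 145, 125 and 149 FPKM in let-7Tg naive cells, again with no overlap. The difference from WT was small, 0.25 ± 0.07 (adjusted p = 0.024), and it was lost without WT replicate 2 or 3 or lin28Tg replicate 1 or 2, with adjusted p-values up to 0.0923. That from let-7Tg was 0.48 ± 0.07 (adjusted p = 0.000792). Itga4 (chr2:79255426-79333123, plus strand) ran from 58.3 to 78.7 FPKM over the 9 naive libraries with overlapping groups, and did not pass in any comparison. Its exons overlap those of Cerkl on the other strand, and whether reads were counted by strand was not stated in the sources used here.

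Of the beta chains in naive lin28Tg cells, Itgb1 was higher and Itgb7 was not called. Itgb1 (chr8:128685654-128733200, plus strand) measured 68.0, 98.01 and 78.7 FPKM in lin28Tg against 55.5, 48.4 and 41.0 FPKM in WT and 53.1, 48.7 and 47.8 FPKM in let-7Tg, with every lin28Tg library on top. It rose by 0.69 ± 0.13 over WT (adjusted p = 0.00396) and by 0.68 ± 0.13 over let-7Tg (adjusted p = 0.00283). Itgb7 (chr15:102215995-102231944, minus strand) measured 625, 618 and 609 FPKM in lin28Tg, below the 708, 712 and 683 FPKM of WT and the 655, 808 and 678 FPKM of let-7Tg. The difference from WT, -0.23 ± 0.09, did not pass (adjusted p = 0.0813).

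Cd44 (chr2:102811141-102901665, minus strand) had the largest rise of the 9 genes in naive lin28Tg over WT. It measured 22.3, 32.6 and 24.6 FPKM in lin28Tg, 12.4, 7.51 and 7.53 FPKM in WT, and 12.0, 7.54 and 8.88 FPKM in let-7Tg, and the lowest lin28Tg library was above every other naive library. The log2 difference was 1.46 ± 0.22 from WT (adjusted p = 0.00152) and 1.43 ± 0.22 from let-7Tg (adjusted p = 0.000937). Ly6c2 (chr15:75108158-75111970, minus strand) was the most uneven gene. It measured 350.0, 75.1 and 58.3 FPKM in WT, 335, 197 and 254 FPKM in lin28Tg, and 109, 35.0 and 90.2 FPKM in let-7Tg, so that WT replicate 1 stood with the lin28Tg libraries. It rose by 1.85 ± 0.63 over let-7Tg (adjusted p = 0.0371), a call lost without any 1 of the lin28Tg libraries or without let-7Tg replicate 2 or 3 (adjusted p up to 0.127); against WT the adjusted p was 0.207, and 0.0116 without WT replicate 1. Ly6c2 shares 13.9% of its 50-base words with the neighbouring Ly6c1, so reads from the shared stretches may not be told apart, and how they were counted was not stated. Ly6c1 itself was highest in naive let-7Tg cells, at 18.4, 19.4 and 25.2 FPKM against 7.88, 1.71 and 2.51 FPKM in WT (log2 difference 2.45 ± 0.41, adjusted p = 0.0382).

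Markers of other cells moved with the naive comparison. The CD8 T cell markers were abundant in every group, but the summed level of 11 myeloid markers was 226 to 878 FPKM in naive lin28Tg libraries against 42.4 to 76.3 FPKM in WT and 31.8 to 74.8 FPKM in let-7Tg, and 10 of the 10 tested were called higher in lin28Tg than in WT. Dendritic cell markers (5 of 5 tested), NK cell markers (4 of 4 tested) and erythroid markers (4 of 5 tested) were also called higher. None of the 11 myeloid or 5 dendritic markers was at 0 throughout naive lin28Tg libraries, and Lyz2, a lysozyme of macrophages and granulocytes, averaged 286 FPKM there and 25.6 FPKM in WT. Cd44, Itgb1, Itgal and Ly6c2 are also expressed by such cells. The part of such cells in the naive differences, that of Itgae included, was not tested. The myeloid sum was 226, 878 and 464 FPKM in lin28Tg replicates 1, 2 and 3, and Cd44 and Itgb1 had the same order. Without replicate 2 Cd44 rose by 1.27 (adjusted p = 0.00582) and Itgb1 by 0.53 (adjusted p = 0.0116) over WT. The lin28Tg libraries kept still had a higher myeloid sum than any WT library, so this fit cannot decide the part of such cells. Itgae and Itgal no longer passed without replicate 2, with adjusted p-values of 0.0641 and 0.0664, and both were also lost without other libraries (above). The summed CD8 T cell markers were 3983 to 4389 FPKM in naive lin28Tg and 5027 to 5864 FPKM in WT. Trac, the constant chain of the T cell receptor, averaged 777 FPKM in lin28Tg and 1592 FPKM in WT. Cd3g averaged 678 and 880 FPKM, Cd3e 263 and 347 FPKM and Cd3d 237 and 289 FPKM. Cd8a averaged 486 and 519 FPKM, Cd8b1 860 and 919 FPKM and Thy1 874 and 932 FPKM. In bulk RNA, fewer cells of a type and less RNA per cell cannot be told apart.

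**Figure D1:**
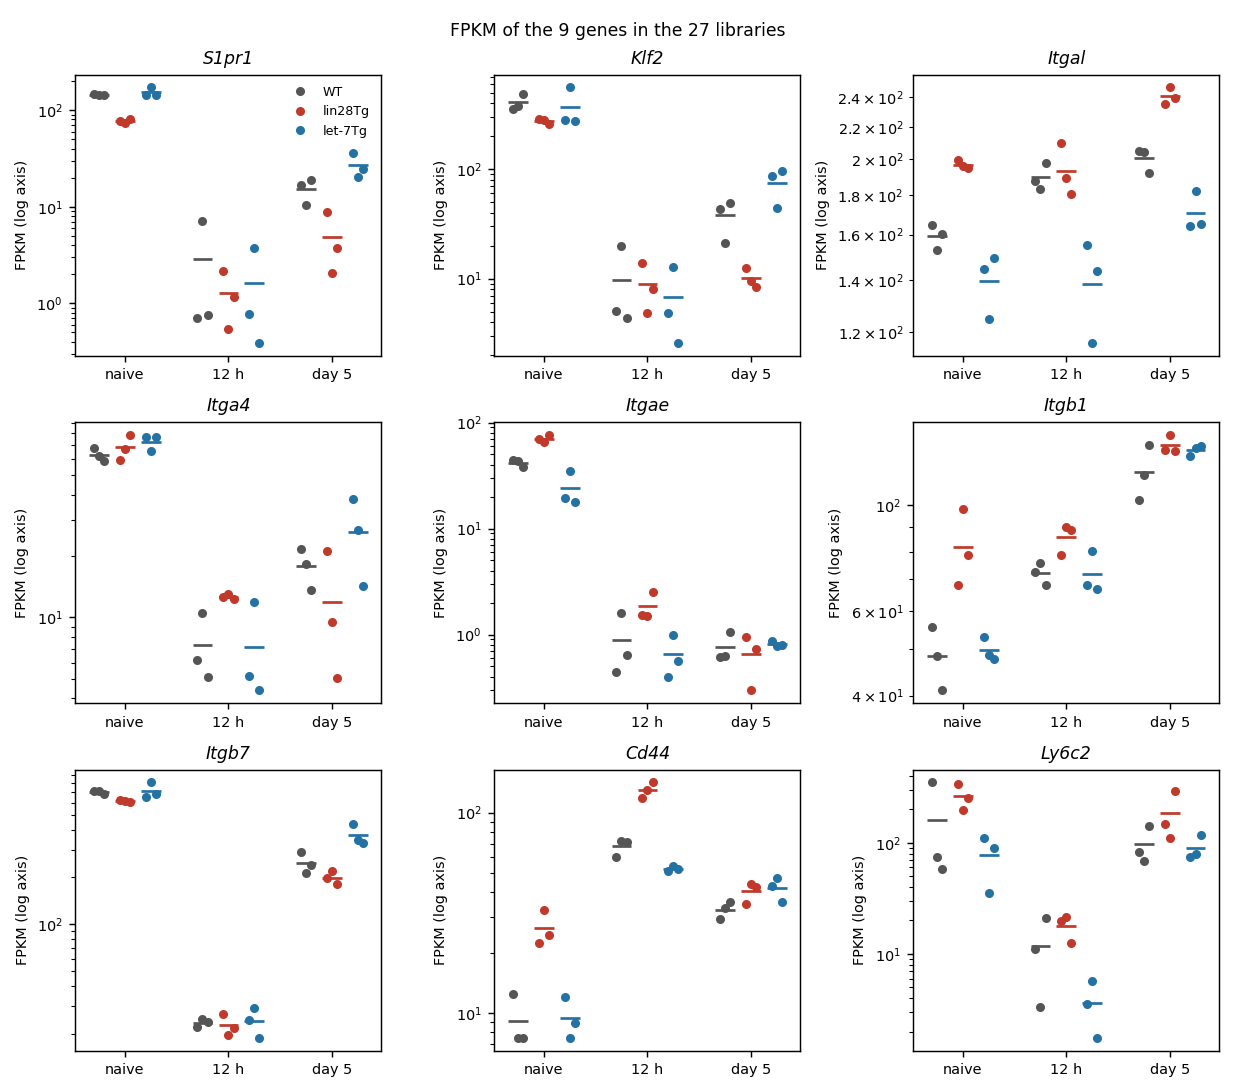
FPKM (log axis, ranges differ between panels) of the 9 genes in all 27 libraries by stage, with 1 point a library, a line at the mean of 3, and genotype by colour. S1pr1, Klf2, Itga4, Itgae, Itgb7 and Ly6c2 are far lower at 12 h than in naive cells, and Cd44 in lin28Tg at 12 h (118 to 142 FPKM) is above every other group.

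Within 12 h of activation, 6 of the 9 genes fell steeply in every genotype, and Cd44 rose several-fold. S1pr1, Klf2, Itga4, Itgae, Itgb7 and Ly6c2 fell and Cd44, Itgb1 and Itgal rose in WT, lin28Tg and let-7Tg cells. All 9 genes passed in each genotype, but so did 71% of the 14446 genes tested in WT, 73.7% in lin28Tg and 69.3% in let-7Tg, so passing is the common state. In WT, mean S1pr1 was 50.4 times lower at 12 h than in naive cells, Klf2 41.4 times, Itgae 46.7 times, Itgb7 29.9 times, Ly6c2 13.6 times and Itga4 8.62 times. WT replicate 2 raised the 12 h means of S1pr1, Klf2, Itgae and Itga4 (below), and WT replicate 1 the naive mean of Ly6c2 (above). Leaving out 1 library, the log2 difference in WT ran from -6.66 to -5.37 for S1pr1 and from -3.93 to -2.53 for Ly6c2. Cd44 was 7.41 times higher in WT, 4.90 times in lin28Tg and 5.53 times in let-7Tg.

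The rise of Itgal at 12 h turned on the scaling of the libraries in lin28Tg and let-7Tg, not in WT. Mean Itgal FPKM at 12 h was 1.19 times the naive level in WT, 0.982 times in lin28Tg and 0.991 times in let-7Tg, and the log2 differences after scaling were 0.52 ± 0.10 (adjusted p = 7.28e-05), 0.26 ± 0.10 (adjusted p = 0.0221) and 0.26 ± 0.10 (adjusted p = 0.027). Without scaling, the median of all genes between 12 h and naive cells shifted to -0.18 in WT, -0.24 in lin28Tg and -0.18 in let-7Tg, and Itgal stood at 0.25 in WT (adjusted p = 0.0112), -0.03 in lin28Tg and -0.02 in let-7Tg. Itgb1 in lin28Tg, 0.38 ± 0.12 with scaling (adjusted p = 0.00699), stood at 0.09 without it (adjusted p = 0.521).

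At 12 h the genotypes differed most clearly in Cd44. It measured 118, 129.6 and 142 FPKM in lin28Tg, 60.2, 72.0 and 71.4 FPKM in WT, and 50.9, 54.0 and 52.3 FPKM in let-7Tg, 3 groups with no overlap. Cd44 was higher in lin28Tg than in WT by 0.91 ± 0.09 on the log2 scale (adjusted p = 0.000656) and higher than in let-7Tg by 1.32 ± 0.09 (adjusted p = 2.83e-05). It was lower in let-7Tg than in WT by a log2 difference of -0.41 ± 0.09 that barely passed (adjusted p = 0.0455), and leaving out any 1 of the 9 libraries ended that call, with adjusted p-values up to 0.177. Cd44 was the 1 gene of the 9 to pass in each comparison with WT, where 8.35% of all 12222 genes tested passed for lin28Tg and 2.97% for let-7Tg. The myeloid markers, summed, had dropped to 10.7 to 21.3 FPKM in lin28Tg and 7.90 to 13.1 FPKM in WT at this stage, with 2 of 8 tested called higher, and the erythroid sum was 83.3 to 693 FPKM against 26.1 to 103 FPKM, with none of 5 called. Dendritic markers summed to 8.19 to 10.5 FPKM in lin28Tg and 3.11 to 4.10 FPKM in WT (1 of 4 tested called higher), and B cell markers to 2.97 to 3.24 FPKM and 1.63 to 1.86 FPKM (1 of 2). Their part in the Cd44 difference was not tested.

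Between lin28Tg and let-7Tg at 12 h, 6 of the 9 genes passed, all higher in lin28Tg, against 30.2% of all genes in either direction and 16.5% in that direction. The median log2 difference of the 9 was 0.56, and that of all genes was -0.00. Itgal measured 209.8, 189 and 180.2 FPKM in lin28Tg and 155, 116 and 144 FPKM in let-7Tg, a log2 difference of 0.51 ± 0.13 (adjusted p = 0.0156). Ly6c2 measured 19.6, 21.4 and 12.6 FPKM against 3.50, 5.66 and 1.75 FPKM, a difference of 2.25 ± 0.57 (adjusted p = 0.0155). For both genes the lin28Tg libraries were all above the let-7Tg libraries. Itgae differed by 1.05 ± 0.30 (adjusted p = 0.0281) at levels of 0.395 to 2.51 FPKM, Itga4 by 0.94 ± 0.31 (adjusted p = 0.0463) and Itgb1 by 0.28 ± 0.07 (adjusted p = 0.0194). The last 3 calls and that of Ly6c2 were each lost without lin28Tg replicate 2 or let-7Tg replicate 3, and Itga4, Itgae and Itgb1 also without lin28Tg replicate 3 or let-7Tg replicate 1 (adjusted p up to 0.14). Itga4 was further lost without lin28Tg replicate 1 or WT replicate 1, and Itgal without lin28Tg replicate 1 (adjusted p = 0.0519). Dendritic markers summed to 8.19 to 10.5 FPKM in lin28Tg and 1.68 to 5.14 FPKM in let-7Tg, B cell markers to 2.97 to 3.24 and 1.62 to 1.94 FPKM, and erythroid markers to 83.3 to 693 and 0.774 to 4.34 FPKM, none overlapping, and their part in these differences was not tested. Without lin28Tg replicate 2 only 2 of the 9 genes passed.

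A pair of 12 h libraries stood apart on the genes that had fallen. S1pr1 was 7.11 FPKM in WT replicate 2 against 0.702 and 0.758 FPKM in the other WT libraries, and 3.72 FPKM in let-7Tg replicate 2 against 0.770 and 0.389 FPKM. Klf2, Itga4 and Itgae were also highest in replicate 2 of both groups, at 19.9, 10.5 and 1.60 FPKM in WT. With this spread no difference in S1pr1 or Klf2 between genotypes was detectable at 12 h, the standard error for S1pr1 being 0.75. Without WT replicate 2, Itgae passed between lin28Tg and WT (adjusted p = 0.0336), and without let-7Tg replicate 2, Itga4 did (adjusted p = 0.0389). Cd69, whose protein holds S1pr1 inside the cell, was tight at this stage, at 166, 167 and 169 FPKM in WT, 103, 107 and 122 FPKM in lin28Tg, and 237, 291 and 231 FPKM in let-7Tg. It was lower in lin28Tg than in WT by a log2 difference of -0.62 ± 0.08 (adjusted p = 0.00198) and higher in let-7Tg by 0.54 ± 0.08 (adjusted p = 0.018).

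**Figure D2:**
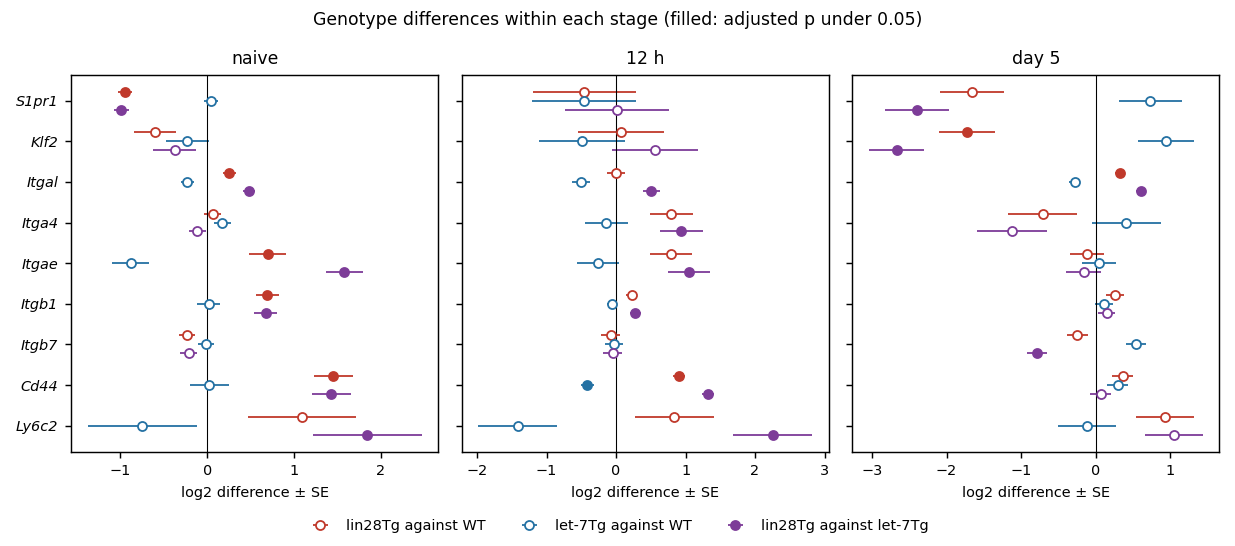
Log2 difference ± SE of each gene between genotypes at each stage (x axis, ranges differ between panels), from limma on log2(FPKM + 0.5) with 3 libraries a group, filled where the adjusted p was under 0.05. S1pr1, Klf2 and Itgb7 lie to the left and Itgal to the right in lin28Tg against let-7Tg at day 5. Cd44 lies to the right for lin28Tg in naive and 12 h cells, and near 0 against let-7Tg at day 5 (0.07). Against WT at day 5 Cd44 was not called, with means of 40.6 FPKM in lin28Tg and 32.8 FPKM in WT.

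In day 5 CTLs S1pr1 stood above its 12 h level in all 3 genotypes and Klf2 in WT and let-7Tg, and both were lowest in lin28Tg. S1pr1 measured 16.6, 10.4 and 18.9 FPKM in WT, 8.81, 2.08 and 3.73 FPKM in lin28Tg, and 35.7, 20.1 and 24.4 FPKM in let-7Tg. Klf2 measured 43.3, 21.3 and 48.7 FPKM in WT, 12.6, 9.41 and 8.29 FPKM in lin28Tg, and 86.7, 43.8 and 95.4 FPKM in let-7Tg. For both genes every lin28Tg library was below every WT and let-7Tg library, S1pr1 in FPKM had no overlap between WT and let-7Tg either, and Klf2 overlapped there. Between lin28Tg and let-7Tg, S1pr1 was lower by a log2 difference of -2.40 ± 0.43 (adjusted p = 0.00456), or 5.48 times in mean FPKM, and Klf2 by -2.67 ± 0.37 (adjusted p = 0.0015), or 7.46 times.

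Against WT, Klf2 was lower in lin28Tg by -1.73 ± 0.37 (adjusted p = 0.0368) and S1pr1 by -1.66 ± 0.43, which did not pass (adjusted p = 0.0651). Same-numbered day 5 libraries deviated together, and with the replicate number as a block S1pr1 passed as well (adjusted p = 0.00616). The Klf2 call was lost without WT replicate 1 or 3, lin28Tg replicate 2 or 3 or let-7Tg replicate 1, with adjusted p-values up to 0.134. Let-7Tg and WT did not differ by the test, at 0.74 ± 0.43 for S1pr1 (adjusted p = 0.574) and 0.95 ± 0.37 for Klf2 (adjusted p = 0.329).

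The number of the 9 genes that passed at day 5 was 2 between lin28Tg and WT, against 4.18% of the 13009 genes tested, and 4 with the replicate block. It was 4 between lin28Tg and let-7Tg, against 21.3%, and 5 did not overlap after scaling of the libraries, against 40.8% (4 in FPKM, where Ly6c2 overlapped); the block added Itga4 (adjusted p = 0.00565) and Ly6c2 (adjusted p = 0.000805). It was 0 between let-7Tg and WT, against 0.945%, with 3 at an unadjusted p under 0.05, and 1 with the block, Itgal (adjusted p = 0.0428).

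Itgal had the clearest genotype order of the integrin chains at day 5. It measured 236, 247 and 239 FPKM in lin28Tg, 205, 204 and 192 FPKM in WT, and 164, 182 and 165 FPKM in let-7Tg, with no overlap between groups. The log2 difference of lin28Tg was 0.33 ± 0.07 from WT (adjusted p = 0.0354) and 0.61 ± 0.07 from let-7Tg (adjusted p = 0.000715). The first was lost without any library but lin28Tg replicate 1 and let-7Tg replicate 3, with adjusted p-values up to 0.135, and the second was kept in all 9 such fits. Itgb2, the beta chain that pairs with Itgal, was at 292, 293 and 314 FPKM in lin28Tg and 241, 241 and 224 FPKM in let-7Tg, higher in lin28Tg by 0.46 ± 0.09 (adjusted p = 0.00781).

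Itgb7 went the other way. It measured 197, 219.8 and 180.0 FPKM in lin28Tg, 288, 214 and 241 FPKM in WT, and 439, 348 and 333 FPKM in let-7Tg. Every let-7Tg library was above every other, while lin28Tg and WT overlapped. Itgb7 was lower in lin28Tg than in let-7Tg by -0.79 ± 0.14 (adjusted p = 0.00402); the difference of let-7Tg from WT, 0.54 ± 0.14, did not pass (adjusted p = 0.111).

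Itga4, which can pair with Itgb7, spread widely within the day 5 groups, at 21.2, 9.44 and 5.02 FPKM in lin28Tg, 21.7, 18.3 and 13.7 FPKM in WT and 37.9, 26.7 and 14.2 FPKM in let-7Tg. Replicate 1 was the highest and replicate 3 the lowest in all 3 genotypes. The difference of lin28Tg from let-7Tg was -1.12 ± 0.47, not past the threshold without the block (adjusted p = 0.121). Itgae stayed at 0.297 to 1.05 FPKM in all day 5 libraries, or 24 to 74 reads, and Itgb1 at 102 to 140.2 FPKM, and neither separated the genotypes.

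Cd44 passed in no comparison of genotypes at day 5, with 35.1, 44.1 and 42.5 FPKM in lin28Tg, 29.5, 33.4 and 35.6 FPKM in WT and 43.1, 46.9 and 35.9 FPKM in let-7Tg. Every let-7Tg library was above every WT library in FPKM, though not after scaling. Ly6c2 measured 148, 112 and 293 FPKM in lin28Tg, 82.1, 68.9 and 140.5 FPKM in WT and 74.0, 79.7 and 117 FPKM in let-7Tg. It was 0.93 ± 0.39 above WT in lin28Tg (adjusted p = 0.229, and 0.0049 with the replicate block). Myeloid markers summed to no more than 7.92 FPKM in any day 5 library, with Lyz2 and Csf1r at or near 0. Among NK cell markers, Klrb1c averaged 104 FPKM in lin28Tg and 22.1 FPKM in WT, Klre1 3.11 and 2.12 FPKM and Klrb1f 1.56 and 1.28 FPKM. Ncr1, which defines NK cells, was at 0.0102 and 0 FPKM. The part of NK cells in the day 5 differences was not tested.

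Over all 9 groups, the means sorted by stage for S1pr1, Klf2, Cd44 and Itgb7, and stages mixed in the order of the other 5 genes. Mean S1pr1 ran from 153 ± 16.6 FPKM (SD, n = 3) in let-7Tg naive and 144 ± 2.02 FPKM in WT naive cells, which overlapped, through 77.3 ± 4.00 FPKM in lin28Tg naive, 26.7 ± 8.07 FPKM in let-7Tg day 5 and 15.3 ± 4.38 FPKM in WT day 5 cells, each apart from its neighbours, to 4.88 ± 3.51 FPKM in lin28Tg day 5 and the 3 groups at 12 h, which all overlapped. Klf2 followed the same order of stages, and lin28Tg day 5 (10.1 ± 2.23 FPKM) overlapped with WT at 12 h (9.78 ± 8.77 FPKM).

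Itgb7 was the most abundant of the 9 in naive cells, from 714 ± 82.7 FPKM in let-7Tg, and fell to between 22.7 ± 3.66 and 24.0 ± 5.14 FPKM in the 3 overlapping 12 h groups before reaching 199 ± 20.0 to 373 ± 57.2 FPKM at day 5. Itgae did not pass as higher at day 5 than at 12 h in any genotype: its day 5 means of 0.658 to 0.813 FPKM overlapped with those of WT and let-7Tg at 12 h. In lin28Tg it fell further between 12 h and day 5, by a log2 difference of -1.12 ± 0.28 (adjusted p = 0.00135). Itgb1 rose at each step, from 48.3 ± 7.27 FPKM in WT naive cells to 72.1 ± 3.71 FPKM at 12 h and 117 ± 15.7 FPKM at day 5. Cd44 peaked at 12 h in every genotype, and its lowest groups, let-7Tg and WT naive cells, overlapped.

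From 12 h to day 5, 7 of the 9 genes passed in each genotype, against 67.5% of all genes in WT, 66.4% in lin28Tg and 67.1% in let-7Tg. Klf2 and Itga4 rose again in WT (log2 differences of 1.98 ± 0.50 and 1.13 ± 0.36) and in let-7Tg (3.44 ± 0.50 and 1.69 ± 0.36) but did not pass in lin28Tg, at 0.17 ± 0.50 (adjusted p = 0.778) and -0.40 ± 0.36 (adjusted p = 0.343). S1pr1 rose in all 3, by 2.66 ± 0.57 in WT, 3.87 ± 0.57 in let-7Tg and 1.44 ± 0.57 in lin28Tg (adjusted p = 0.0307), the last being lost without lin28Tg 12 h replicate 2 or 3 or lin28Tg day 5 replicate 1 (adjusted p up to 0.18). The difference between lin28Tg and let-7Tg in this step passed for 6 of the 9 genes, against 20% of all genes, and every such difference was negative. It was -3.26 ± 0.71 for Klf2 (adjusted p = 0.00181), -2.44 ± 0.81 for S1pr1 (adjusted p = 0.0352), -2.09 ± 0.51 for Itga4 (adjusted p = 0.00495), -0.77 ± 0.18 for Itgb7 (adjusted p = 0.00386), -1.29 ± 0.25 for Cd44 (adjusted p = 0.000573) and -1.27 ± 0.40 for Itgae (adjusted p = 0.0272). The same difference between lin28Tg and WT passed for none of the 9, against 6.31% of all genes, with 5 at an unadjusted p under 0.05, and that between let-7Tg and WT for none, against 1.44%, with 2. Between naive cells and 12 h, no gene of the 9 passed for lin28Tg against WT (7.88% of all genes), let-7Tg against WT (0.0761%) or lin28Tg against let-7Tg (13.3%), with 2, 0 and 1 at an unadjusted p under 0.05.

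From naive cells to day 5, 8 of the 9 genes passed in each genotype, against 65.1% of all genes in WT, 68.1% in lin28Tg and 62.2% in let-7Tg, and Ly6c2 was the gene that did not. The lin28Tg response departed from that of let-7Tg for 5 of the 9 genes, against 25.1% of all genes: Klf2 by -2.35 ± 0.71 (adjusted p = 0.0168), Itgae by -1.79 ± 0.40 (adjusted p = 0.00185), Cd44 by -1.41 ± 0.25 (adjusted p = 0.000194), Itgb7 by -0.62 ± 0.18 (adjusted p = 0.0141) and Itgb1 by -0.58 ± 0.17 (adjusted p = 0.0134). It departed from that of WT for Cd44 alone, by -1.11 ± 0.25 (adjusted p = 0.0032), against 15% of all genes. Let-7Tg departed from WT for none, against 0.464%, with 2 at an unadjusted p under 0.05. For Cd44, Itgae and Itgb1 these values carry the higher naive level in lin28Tg described above, beside which the myeloid markers were also higher.

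Klf2 and S1pr1 moved together over the series. The 3 genes most like Klf2 over the 27 libraries, by Pearson correlation of log2 values, were S1pr1 (r = 0.982), Hmgb1-ps8 (0.976) and Gm26740 (0.974). The stages drive such values, and within a stage r for the pair was 0.656 over the 9 naive libraries, 0.940 at 12 h and 0.932 at day 5, where the genotypes and the replicates that stand apart contribute. Most like Itgae were Oas2 (0.985), Rsad2 (0.973) and Mx2 (0.971), 3 interferon-induced genes, and most like Ly6c2 was the interferon-induced kinase Eif2ak2 (0.950). Most like S1pr1 were Gm11346, Gm26740 and Hmgb1-ps8 (0.985 to 0.990). Most like Itgb7 were Arl4c (0.993), Sit1 (0.993) and Myl12b (0.991). Most like Cd44 were Plscr1, Tbkbp1 and Trip10 (0.966 to 0.980). The genes most like Itga4 were Cd1d1, Nck2 and Abcg1 (0.951 to 0.959), those most like Itgb1 included Nudt4 (0.969) and Pacsin2 (0.966), and those most like Itgal were Lpcat3, Ciao2a and Qars (0.943 to 0.949). These are descriptions over libraries that share stage and genotype.

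**Figure D3:**
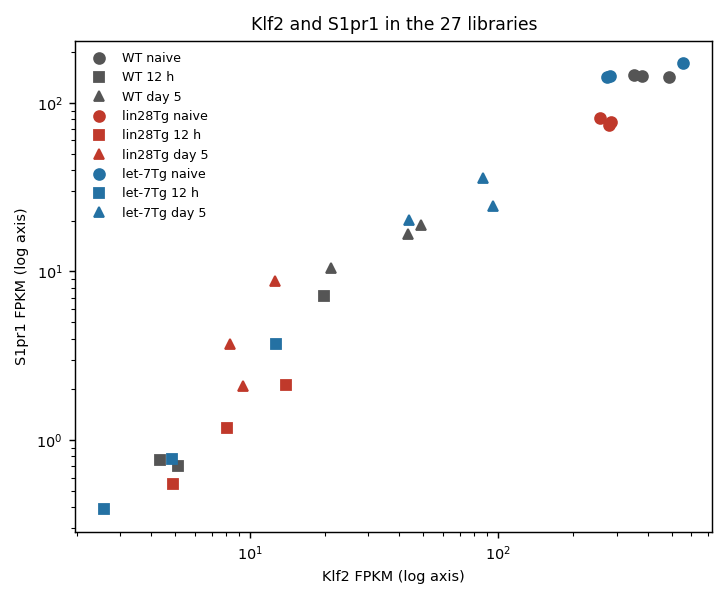
S1pr1 FPKM (y, log axis) against Klf2 FPKM (x, log axis), with 1 point a library, colour for genotype and shape for stage. Naive libraries sit at the upper right and 12 h libraries at the lower left, WT and let-7Tg day 5 libraries lie between them, and the 3 lin28Tg day 5 libraries have the lowest Klf2 of their stage, 8.29 to 12.6 FPKM.

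Itga4 and Itgb7 both fell by 12 h in every genotype. By day 5 Itgb7 had risen again in all 3 genotypes, lin28Tg included (3.02 ± 0.13, adjusted p = 1.28e-14), and Itga4 in WT and let-7Tg. Their promoters, taken from RefSeq (GRCm38.p6, 250 bases before to 50 after the start), each held 4 copies of the letters CACCC or, on the other strand, GGGTG, which are the core of the box bound by Kruppel-like factors such as Klf2. Of all 32851 promoters, 57.5% held at least 1 copy and 3.1% at least 4. Among the other promoters given, that of Itgb1 held 2, that of Klf2 1, that of Cd44 0 and those of Ly6c2 0 or 1. The 60 bases with 3 of the 4 copies are shown for the pair of genes, on the strand of the gene, with the copies in capitals; whether any factor binds them was not measured here.
Itga4: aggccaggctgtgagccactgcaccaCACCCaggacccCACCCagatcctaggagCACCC
Itgb7: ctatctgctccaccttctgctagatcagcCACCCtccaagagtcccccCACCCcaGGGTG
The Itga4 stretch is chr2:79255344-79255403 on the plus strand and ends 22 bases before the start site, and the Itgb7 stretch is chr15:102231940-102231999 on the minus strand and ends 4 bases before it.

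The balance of the beta chains, taken as log2 of Itgb7 FPKM over Itgb1 FPKM in each library, swung with stage, and its lin28Tg mean was the lowest at each stage. In naive cells it was 3.67, 3.88 and 4.06 in WT, 3.20, 2.66 and 2.95 in lin28Tg, and 3.62, 4.05 and 3.83 in let-7Tg. At 12 h all libraries lay below 0, so that Itgb1 exceeded Itgb7, with means of -1.62 ± 0.09 (SD, n = 3) in WT, -1.93 ± 0.33 in lin28Tg and -1.60 ± 0.21 in let-7Tg. At day 5 it was 1.49, 0.89 and 0.85 in WT, 0.59, 0.65 and 0.47 in lin28Tg, and 1.80, 1.40 and 1.32 in let-7Tg.

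In naive cells and at day 5 each lin28Tg library was below all others of its stage. Itgb1 is also expressed by the other cells whose markers were higher in naive lin28Tg libraries, and their part in the naive ratio was not tested. An exact permutation test of the F statistic over the 280 divisions of 9 libraries into groups of 3, one-sided, gave p = 0.025 in naive cells, 0.221 at 12 h and 0.0143 at day 5, with values of 0.0375, 0.221 and 0.0375 after adjustment over the 3 stages. The smallest p this test allows is 0.00357. It exchanges all 9 libraries freely, and as day 5 libraries were taken as paired, the test was repeated with exchange only within a replicate number, an alternative chosen after seeing the data. This exact permutation test gave p = 0.0278 at day 5, the smallest that its 36 divisions allow. Adjusted over the 3 stages it was 0.0833, which did not pass. Given the p-values of the other stages, the adjusted value could not have been lower. The test therefore cannot decide whether the day 5 difference holds with the pairing. At day 5 the p rose to 0.0714 without lin28Tg replicate 3 and to 0.05 or more without lin28Tg replicate 1 or let-7Tg replicate 2.

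**Figure D4:**
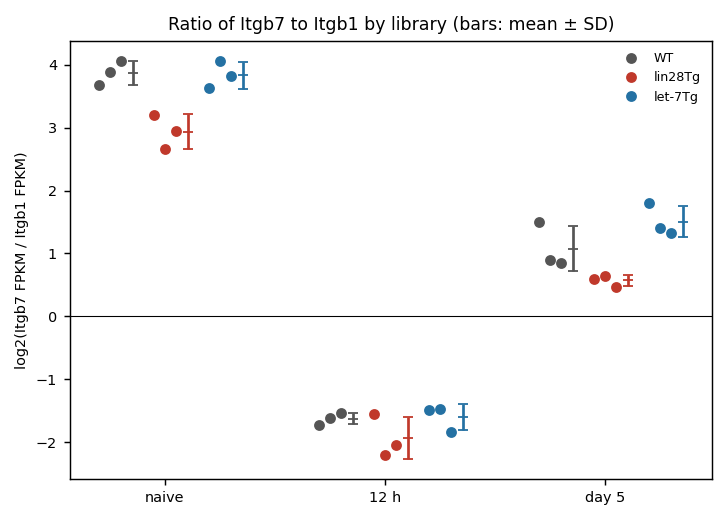
Log2 ratio of Itgb7 to Itgb1 FPKM (y) by stage and genotype, with 1 point a library and bars for mean ± SD of 3. The ratio is above 0 in naive cells and at day 5 and below 0 at 12 h, and the lin28Tg libraries are the lowest of the naive (2.66 to 3.20) and day 5 (0.47 to 0.65) libraries.

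Other genes of the same pathways were counted from lists for these processes that leave out the 9 genes. Of 16 egress and quiescence genes tested at day 5, 4 were lower and 0 higher in lin28Tg than in WT (median log2 difference -0.18), against 4.18% of all genes, and 6 were lower and 3 higher than in let-7Tg (median -0.16), against 21.3%; the median of all genes was 0.01 in both. Ccr7, the chemokine receptor that guides T cells into lymph nodes, was at 3.02, 2.69 and 1.98 FPKM in lin28Tg against 54.7, 40.9 and 65.1 FPKM in let-7Tg, a log2 difference of -4.03 ± 0.30 (adjusted p = 0.000131). Klf3, a relative of Klf2, was lower in lin28Tg than in let-7Tg by -2.72 ± 0.36 (adjusted p = 0.00128).

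Of 13 other integrin alpha chains tested at day 5, 4 were higher and 0 lower in lin28Tg than in WT (median 0.21), against 4.18% of all genes. Itgax was at 3.58 ± 1.27 FPKM in lin28Tg against 0.254 ± 0.201 FPKM in WT (log2 difference 2.48 ± 0.27, adjusted p = 0.00309), and Itgav, a fibronectin and vitronectin receptor chain, at 70.9 ± 17.2 against 31.8 ± 9.23 FPKM (1.22 ± 0.24, adjusted p = 0.0263). Against let-7Tg, 5 were higher and 3 lower, against 21.3% of all genes, and Itga6, a laminin receptor chain, was lower in lin28Tg by -0.89 ± 0.12 (adjusted p = 0.00145). Of 5 beta chains other than Itgb1 and Itgb7, 2 were higher and 0 lower than in let-7Tg, against 21.3% of all genes. None passed against WT, where 4.18% of all genes did.

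Among 31 integrin activation genes at day 5, 2 were lower and 0 higher in lin28Tg than in WT, against 4.18% of all genes. They were Rasgrp2, which switches on Rap1, at 107.5 ± 14.3 against 206 ± 23.2 FPKM (-0.87 ± 0.15, adjusted p = 0.0156), and Cyth1 (-0.63 ± 0.12, adjusted p = 0.0261). Against let-7Tg 7 were higher and 5 lower, where 21.3% of all genes were called. Of 8 adhesion ligands tested, 2 were higher and 1 lower in lin28Tg than in let-7Tg, against the same 21.3% of all genes. They include Cdh1, E-cadherin itself, at 8.002 ± 5.15 against 0.174 ± 0.0675 FPKM (3.47 ± 0.51, adjusted p = 0.00186), and Icam2 at 9.38 ± 1.77 against 34.8 ± 3.22 FPKM (-1.74 ± 0.23, adjusted p = 0.00127).

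The TGF-beta pathway is known to induce Itgae. Of 14 of its signaling genes, 1 was lower and none higher in lin28Tg than in WT at day 5, against 4.18% of all genes. In the comparison with let-7Tg 4 were lower and 2 higher, against 21.3%. In naive cells 3 were higher and 4 lower in lin28Tg than in WT, where 33.9% of all genes were called, with Tgfbr1 at 31.5 ± 1.94 against 19.0 ± 1.04 FPKM (0.67 ± 0.08, adjusted p = 0.000366) and Smad3 at 106 ± 4.99 against 68.8 ± 2.43 FPKM (0.57 ± 0.06, adjusted p = 0.000269). Of 16 selectin ligand synthesis genes, 8 were higher and 0 lower in lin28Tg than in let-7Tg at 12 h, against 30.2% of all genes in either direction and 16.5% higher. Selplg, the P-selectin ligand, was among them, at 82.0 ± 5.70 against 41.7 ± 10.0 FPKM (1.01 ± 0.16, adjusted p = 0.00162). None of the 16 passed between lin28Tg and WT, where 8.35% of all genes did. Of 9 memory and effector surface genes tested at day 5, 3 were lower and 0 higher in lin28Tg than in WT (median -0.16), against 4.18% of all genes. In the comparison with let-7Tg 5 were lower and 1 higher (median -0.54), against 21.3%. Of 8 Ly6 family genes tested in naive cells, 3 were higher and 0 lower in lin28Tg than in WT, against 33.9% of all genes.

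The naive counts of these lists again stand beside the markers of other cells, and 33.9% of all genes were called in that comparison. Of 13 other alpha chains, 6 were higher and 1 lower in naive lin28Tg than in WT. Itgam, the alpha chain of macrophages and granulocytes, was at 16.7 ± 9.22 against 3.66 ± 0.840 FPKM (1.87 ± 0.36, adjusted p = 0.00416). Of 17 egress and quiescence genes, 5 were higher and 7 lower, with Foxo1, which maintains Klf2 expression, at 31.9 ± 2.35 against 47.7 ± 1.68 FPKM (-0.63 ± 0.09, adjusted p = 0.000987).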

How the data were processed

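P14 CD8 T cells were sequenced as 27 RNA-seq libraries, and the deposited tables, 1 for each stage, give FPKM per gene and library. The authors aligned reads with TopHat v2.0.9 (Bowtie v2.0.6) and counted them with HTSeq v0.6.1; the submitters' processing notes name GRCm38 and mm10, and the annotation release is not given in the sources used here. The deposited FPKM values scale reads by gene length and library total, and 462839 of 462839 values tested came out as whole reads within 0.02 of a read. The tables' group mean counts, fold changes, p-values and clusters made by the authors were not used. FPKM rescaled by trimmed mean factors was transformed as log2(FPKM + 0.5), so fold changes of low genes are understated. A gene was tested where 3 or more libraries held the FPKM of 10 reads at median depth and its reads summed to 15 or more. Genotypes were compared within a stage (9 libraries a fit), stages and their differences in 1 fit of 27 libraries, with limma 3.58.1 (R 4.3.3) and Benjamini-Hochberg adjustment over all genes tested.

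The 9 genes and the lists were chosen with earlier results of these data known. All 9 passed the filter in every fit. Named genes are the 9, Itgb2, Cd69, Ccr7 and Ly6c1, at most 3 called genes with groups that do not overlap for each list and comparison, and the 3 most correlated genes; results for some named genes are not reported here. The counts of all 27 replicate pairs differed beyond sampling (chi-square per degree of freedom 4.16 to 53.5). At day 5, same-numbered libraries of different genotypes deviated together (r of 0.24 to 0.72 over genes for 9 pairs), and likewise WT and let-7Tg at 12 h (0.24 to 0.55), which was taken as pairing; other pairs ran from -0.26 to 0.47. Coordinates come from Ensembl identifiers found in GENCODE M21 (34490 of 35275 identifiers). Promoters were given for 6 of the 9 genes. The fits were tested on simulated data. Alternatives were other pseudocounts (0.1 and 1), no filter, no scaling, a replicate block, voom on the recovered reads, only the 6 libraries compared, and leaving out each library. Overlap of a named gene's groups is read in FPKM, and counts of genes without overlap use the scaled values.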

Additional observations from a re-analysis of the deposited data

Results flagged for a closer look

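The results singled out here are differences between genotypes in the response to activation, each tested in limma as a difference of differences over the 27 libraries. Between 12 h and day 5, lin28Tg differed from let-7Tg in Klf2 (-3.26), S1pr1 (-2.44), Itga4 (-2.09), Cd44 (-1.29), Itgae (-1.27) and Itgb7 (-0.77), all on the log2 scale and all negative. At 12 h Cd44 (means of 130 against 52.4 FPKM), Itgae (1.84 against 0.651 FPKM) and Itga4 were higher in lin28Tg than in let-7Tg. At day 5 Cd44 and Itgae did not differ between the genotypes by the test. The calls of S1pr1 and Itgae were lost in 8 and 5 of the 27 fits that left out a library. Both calls were also lost with voom on the recovered reads (adjusted p = 0.0747 and 0.0751) and with no filter (adjusted p = 0.0706 and 0.0534). That of S1pr1 was further lost with a pseudocount of 0.1 (adjusted p = 0.0556).

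Between naive cells and day 5, lin28Tg differed from let-7Tg in Klf2 (-2.35), Itgae (-1.79), Cd44 (-1.41), Itgb7 (-0.62) and Itgb1 (-0.58), and from WT in Cd44 (-1.11). Without lin28Tg naive replicate 2, the library with the most myeloid marker RNA, Itgb1 (adjusted p = 0.12) and Itgb7 (adjusted p = 0.0651) no longer passed. The same calls were also lost without let-7Tg naive replicate 3 (adjusted p = 0.0678 and 0.0757), as was that of Klf2 (0.051), and that of Itgb7 without let-7Tg day 5 replicate 1 (0.107). The part of other cells in these values was not tested.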

How the results depend on the processing

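The count of the 9 genes called between let-7Tg and WT at 12 h, 1 gene, was 0 with no filter, 2 with no scaling and 0 with only the 6 libraries compared. That between lin28Tg and WT at day 5, 2 genes, was 0 with no filter, 1 with no scaling, 1 with voom and 1 with only the 6 libraries compared. The replicate block gave 2 of 9 in place of 1 between lin28Tg and WT at 12 h, where these libraries were not taken as paired. At day 5, where libraries were taken as paired, it gave 4 in place of 2 between lin28Tg and WT and 1 in place of 0 between let-7Tg and WT. For the difference of lin28Tg from WT between 12 h and day 5 it gave 1 in place of 0. The block changed no other count of the 9 by more than 1.5 times. That difference between naive cells and day 5 gave 2 in place of 1 with no scaling. Without scaling, Itgal between 12 h and naive cells reversed to -0.0285 in lin28Tg and -0.0188 in let-7Tg. Across single genes that passed under any setting, 749 values kept direction and side of the threshold under other settings, 21 lost and 10 gained the call, and 2 reversed. For differences between genotypes in the response to activation, only genes that passed under the settings used above were counted. Calls gained there are left out.

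Leaving out each library in turn, the count ran from 3 to 7 for naive lin28Tg against WT, 0 to 1 for naive let-7Tg against WT, 1 to 2 and 0 to 1 for lin28Tg and let-7Tg against WT at 12 h, 2 to 6 for lin28Tg against let-7Tg at 12 h, and 0 to 3 for lin28Tg against WT at day 5. For differences between stages it ran from 0 to 1 (12 h against naive), 0 to 2 (day 5 against 12 h) and 1 to 2 (day 5 against naive) for lin28Tg against WT, and 0 to 1 (12 h against naive) and 2 to 6 (day 5 against naive) for lin28Tg against let-7Tg. Between 12 h and day 5, Itga4 in lin28Tg ran from -0.896 to 0.0616 and Itgal in let-7Tg from -0.015 to 0.283. The p of the beta chain ratio at day 5 ran from 0.00357 to 0.0714. With exchange only within a replicate number (a block chosen after seeing the data) the permutation p of the ratio was 0.0833 in naive cells. Adjusted over the 3 stages it was 0.125. Naive libraries were not taken as paired, with r of -0.25 to 0.47 for the same number, and the labels do not say what a number stands for. The causes of these changes were not tested.

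Over all genes, calls between lin28Tg and WT at day 5 went from 544 to 1755 with the block, 333 with no filter and 202 with only the 6 libraries compared; those between let-7Tg and WT from 123 to 528, 54 and 1, and those between lin28Tg and let-7Tg from 2771 to 4686 with the block. Between let-7Tg and WT they went from 363 to 79 with no filter, 241 with the block and 45 with 6 libraries at 12 h, and from 98 to 43 with no filter, 57 with the block and 37 with voom in naive cells. For differences between stages, voom gave 163 in place of 1139, 1323 in place of 2161 and 827 in place of 1925. Without scaling, the share of calls that were higher went from 50.2% to 35.0% for lin28Tg against let-7Tg at day 5, and from 49.4% to 38.3% for 12 h against naive lin28Tg cells. Itgae past activation rests on 24 to 165 reads a library, and at day 5 no genotype difference in it was detectable at this depth.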
